A study of Homo sapiens with 16 samples.

Results

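The genes described here were the members of 8 families of developmental regulators, namely the PAX, TBX, LHX, sine oculis (SIX2, SIX4 and their relatives), IRX, DLX and NKX transcription factors and the WNT ligands. They were all GENCODE protein-coding genes whose symbol is one of these family names followed by a digit, which gave 81 of 20033 genes: 19 WNT, 14 NKX, 13 TBX, 9 PAX, 8 LHX, 6 sine oculis, 6 IRX and 6 DLX genes. The data were lists of CUT&RUN peaks from MCF-10A, a nontransformed human breast epithelial cell line. CUT&RUN releases DNA beside an antibody-bound histone mark with a tethered nuclease. Cells were exposed to vehicle (PBS) or to 5 mM octanoic acid (OA), a medium-chain fatty acid, for 24 hours, and 3 vehicle and 3 OA libraries were profiled for each of H3K4me3 and H3K27me3. There were also 2 untreated H3K4me3 libraries (positive control) and 2 untreated IgG libraries (negative control). All libraries came from 1 cell line. The labels number the replicates, and the study's methods describe the vehicle and OA cells as biological triplicates.

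H3K4me3 is deposited at start sites that are active or poised for transcription, and H3K27me3 is deposited by Polycomb repressive complex 2 at genes held silent. Patterning factors and WNT ligands are well-known Polycomb targets, because each is needed in few cell types and is kept off in the rest, and their CpG-rich start sites can carry both marks at once in stem cells. WNT proteins signal through Frizzled receptors and LRP or ROR co-receptors and are needed for growth and branching of the mammary gland.

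A gene was counted as called in a library where a peak of that library lay in a merged region within 3 kb of one of its start sites. Regions were kept where at least 2 of the 6 vehicle and OA libraries of a mark had a peak. A call depends on the number of peaks in a library. H3K4me3 lists held 16086 to 21033 peaks, and vehicle replicate 3 covered the least sequence, 10.3 Mb against 14.3 to 21.2 Mb in the other 5 libraries. The lowest local background that many peaks of a library shared, solved from the deposited fold and p-value, was 0.450 reads in that library and 0.633 to 0.853 in the others, whereas read depth itself is unknown. H3K27me3 lists held 9091 to 47648 peaks, with the fewest in OA replicate 3. Of 11 epithelial markers, 7 were called for H3K4me3 in all 6 libraries and all 11 in at least 1, and of 8 markers of other cell types 0 were called. KRT14 was called in vehicle replicates 1 and 2 and in no OA library.

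Fewer of the developmental genes than of all genes carried H3K4me3, and more carried H3K27me3. H3K4me3 was called at 39 of the 81 genes in at least 1 of the 6 libraries, against 66.8% of all protein-coding genes, and at 18 of them in every library, against 56.5%. H3K27me3 was called at 31 of the 81 genes, against 13.8% of all genes, and at 8 in every library, against 2.04%. For H3K4me3, the 3 vehicle libraries had calls at 33, 30 and 18 of the 81 genes and the 3 OA libraries at 35, 36 and 39, so that vehicle replicate 3 stood below the others. Over all protein-coding genes the shares were 63.8, 62.1 and 57.1% in vehicle against 64.1, 65.4 and 66.6% in OA. For H3K27me3, the vehicle libraries had calls at 25, 26 and 26 genes and the OA libraries at 21, 22 and 15, so that every OA library had fewer calls than every vehicle library. The shares of all protein-coding genes overlapped, at 8.32, 11.4 and 9.94% for vehicle and 9.59, 8.64 and 4.02% for OA. IgG peaks were called at 0 of the 81 genes in both libraries, and at 1.11 and 0.120% of all genes.

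**Figure D1:**
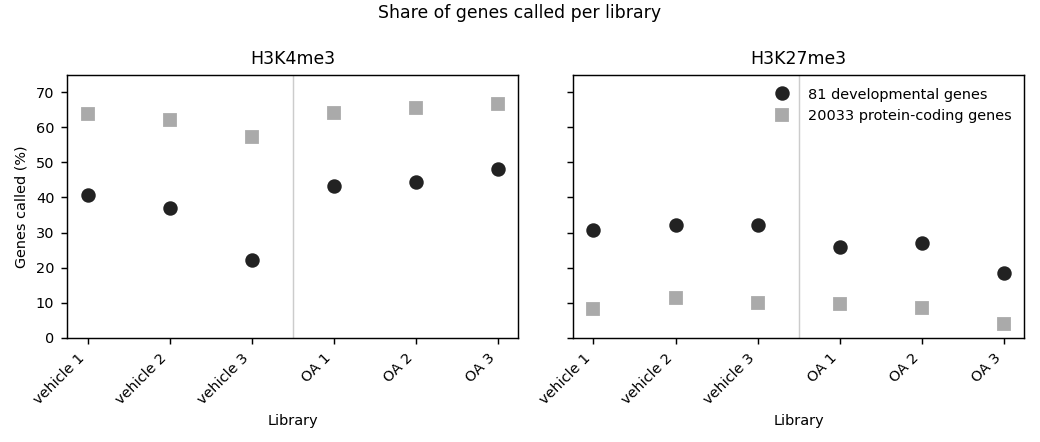
Share of genes called per library (%), for H3K4me3 (left) and H3K27me3 (right). Circles are the 81 developmental genes and squares all 20033 protein-coding genes. In every library the circles lie below the squares for H3K4me3 and above them for H3K27me3, and vehicle replicate 3 has the lowest H3K4me3 share of both.

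The families differed in which mark they carried. The Iroquois genes carried H3K4me3 alone: IRX1, IRX2, IRX3, IRX4 and IRX5 in all 6 libraries and IRX6 in OA replicates 2 and 3, with 0 of 6 called for H3K27me3. The PAX genes, which include PAX6 of eye and PAX3 of neural crest development, mostly carried H3K27me3. It was called at 6 of 9 (PAX1, PAX2, PAX3, PAX4, PAX5 and PAX6) and H3K4me3 at PAX9 alone. In the sine oculis family, genes called for H3K4me3 in all 6 libraries included SIX2, SIX4 and SIX5. TBX2, TBX3 and TBX6 carried H3K4me3 in all 6 libraries, and TBX3 is a factor that mammary gland formation requires. TBX5 of heart and forelimb, TBX20 of heart and TBX21 (T-bet) of T lymphocytes carried H3K27me3. Of the 13 TBX genes, 6 had no kept region of either mark. Of the 8 LIM-homeobox (LHX) genes, 0 had a mark in all 6 libraries: H3K4me3 was called at LHX1, LHX4, LHX6 and LHX9 and H3K27me3 at LHX2, LHX3, LHX4 and LHX5. Among the 14 NKX genes, NKX3-2 carried H3K4me3 in all 6 libraries, NKX2-5 (heart) and NKX2-8 carried it in 5, and 6 had no kept region of either mark. In the distal-less family, DLX1 and DLX2 carried H3K4me3 in all 6 libraries and DLX3 and DLX4 carried H3K27me3 in all 6. The WNT ligands were split: H3K4me3 was called at 11 of 19 and H3K27me3 at 7 of 19. WNT5A, a ligand of the beta-catenin-independent pathway, was the WNT gene called for H3K4me3 in all 6 libraries, and WNT1, WNT3A and WNT16 were called for H3K27me3 in all 6. SIX5 shared its H3K4me3 regions with the start site of DMPK, and TBX6 shared its region with YPEL3, so those calls cannot be assigned to 1 gene.

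**Figure D2:**
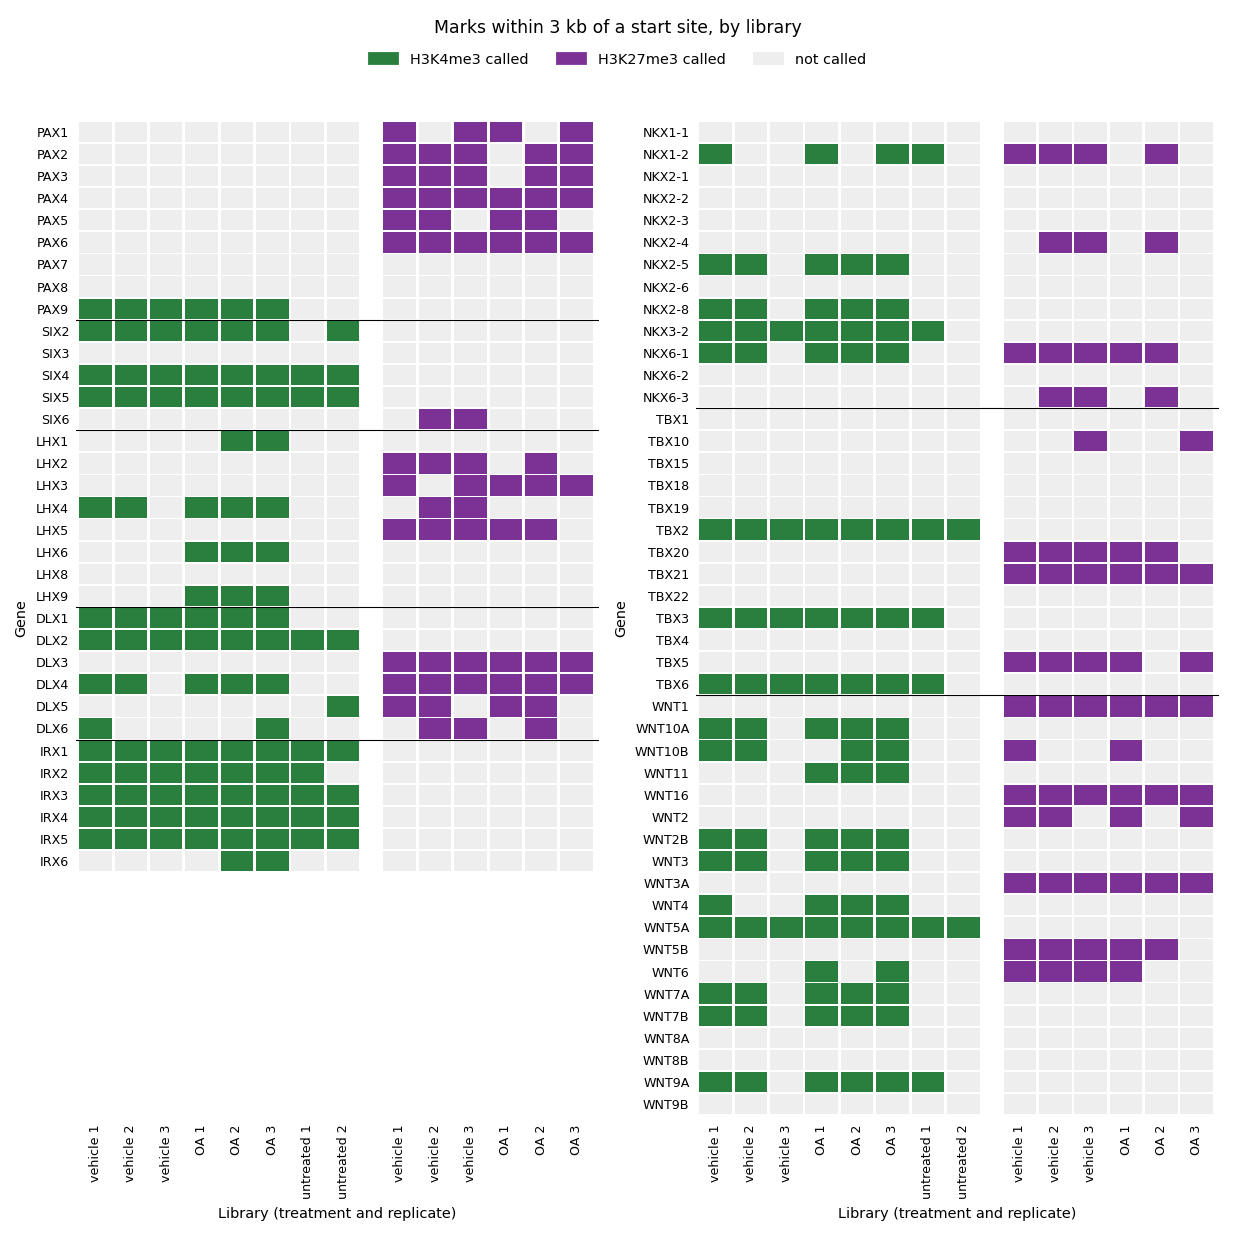
Calls of H3K4me3 (green) and H3K27me3 (purple) within 3 kb of a start site, for 79 of the 81 genes (rows, by family) in each library (columns, by treatment and replicate). Grey squares are libraries without a call. IRX1 to IRX5 are green in all 6 vehicle and OA libraries, the PAX rows are mostly purple, and 11 rows are green in all of these libraries but vehicle replicate 3.

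A mark was assigned to a condition where at least 2 of its 3 libraries had a call. In vehicle, 27 of the 81 genes had H3K4me3 (59.9% of all genes), 25 had H3K27me3 (8.27%), 3 had both (2.12%) and 26 had neither (29.8%). In OA, 36 had H3K4me3 (63.8%), 18 had H3K27me3 (5.08%), 2 had both (2.3%) and 25 had neither (28.8%). The state was the same in both conditions at 27 genes with H3K4me3, 18 with H3K27me3, 2 with both and 20 with neither. It differed at the remaining genes. NKX1-2 and WNT6 had H3K27me3 in vehicle and H3K4me3 in OA. LHX4 had both in vehicle and H3K4me3 in OA. In OA replicate 1 it also had 459 bases under an H3K27me3 peak within 3 kb of its start, outside any kept region. IRX6, LHX1, LHX6, LHX9, WNT11 and WNT4 had neither in vehicle and H3K4me3 in OA. DLX6, LHX2, NKX2-4, NKX6-3 and SIX6 had H3K27me3 in vehicle and neither in OA. A state can change through 1 library. At DLX6, NKX2-4 and NKX6-3, H3K27me3 was called in 2 vehicle libraries and 1 OA library. At NKX1-2, H3K4me3 was called in 1 vehicle library and 2 OA libraries. Changes of state were not counted over all protein-coding genes, so no share stands beside these counts. No gene moved from H3K4me3 in vehicle to another state, nor from neither to H3K27me3.

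To show what the start sites of these classes look like, the 250 bases before the annotated start of 7 genes are given from the RefSeq promoter table (GRCh38.p14), read along the strand of the gene, with CpG dinucleotides in capitals. NKX3-2 (H3K4me3 in every library) is at chr4:13544509-13544758 on the minus strand. WNT3A (H3K27me3 in every library) is at chr1:228006748-228006997 on the plus strand. LHX4 (both marks in vehicle) is at chr1:180230014-180230263 on the plus strand. NKX1-2 (H3K27me3 in vehicle, H3K4me3 in OA) is at chr10:124450036-124450285 on the minus strand. WNT4 (neither in vehicle, H3K4me3 in OA) is at chr1:22143098-22143347 on the minus strand. PAX4 (called for H3K27me3 in every library through a region 1081 bp from this start) is at chr7:127618143-127618392 on the minus strand. TBX22 (neither mark) is at chrX:80014503-80014752 on the plus strand. These windows contain no exon of the canonical transcript of a protein-coding gene, and exons of other transcripts were not checked.
NKX3-2: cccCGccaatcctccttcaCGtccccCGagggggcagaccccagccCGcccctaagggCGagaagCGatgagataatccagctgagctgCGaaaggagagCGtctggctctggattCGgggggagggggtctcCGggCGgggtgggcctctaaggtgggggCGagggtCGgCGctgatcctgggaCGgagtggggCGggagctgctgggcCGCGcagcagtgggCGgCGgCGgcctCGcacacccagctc
WNT3A: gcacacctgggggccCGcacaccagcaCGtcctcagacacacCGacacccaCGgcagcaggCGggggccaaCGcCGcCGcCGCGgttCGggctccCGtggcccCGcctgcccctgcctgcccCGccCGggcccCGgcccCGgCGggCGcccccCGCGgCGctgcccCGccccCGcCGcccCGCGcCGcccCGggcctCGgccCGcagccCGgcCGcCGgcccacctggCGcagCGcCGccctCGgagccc
LHX4: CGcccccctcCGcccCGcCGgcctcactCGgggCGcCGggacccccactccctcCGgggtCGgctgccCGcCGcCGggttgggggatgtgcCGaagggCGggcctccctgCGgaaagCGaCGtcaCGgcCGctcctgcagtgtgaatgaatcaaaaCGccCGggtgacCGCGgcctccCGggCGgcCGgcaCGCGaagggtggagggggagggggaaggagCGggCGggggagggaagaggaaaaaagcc
NKX1-2: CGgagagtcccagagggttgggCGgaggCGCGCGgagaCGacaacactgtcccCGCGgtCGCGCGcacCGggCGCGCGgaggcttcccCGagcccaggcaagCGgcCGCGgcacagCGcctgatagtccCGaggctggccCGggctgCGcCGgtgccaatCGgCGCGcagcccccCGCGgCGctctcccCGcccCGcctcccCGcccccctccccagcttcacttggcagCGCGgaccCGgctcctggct
WNT4: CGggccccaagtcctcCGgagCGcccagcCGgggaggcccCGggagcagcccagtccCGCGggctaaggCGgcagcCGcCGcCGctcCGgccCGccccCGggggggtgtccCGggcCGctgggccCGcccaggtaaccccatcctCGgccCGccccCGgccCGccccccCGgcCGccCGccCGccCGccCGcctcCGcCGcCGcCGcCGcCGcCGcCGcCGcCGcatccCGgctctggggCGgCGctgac
PAX4: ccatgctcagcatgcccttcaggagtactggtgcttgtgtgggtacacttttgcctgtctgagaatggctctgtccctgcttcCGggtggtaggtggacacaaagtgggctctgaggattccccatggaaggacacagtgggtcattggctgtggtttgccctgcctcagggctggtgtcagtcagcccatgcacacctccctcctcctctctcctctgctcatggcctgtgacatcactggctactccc
TBX22: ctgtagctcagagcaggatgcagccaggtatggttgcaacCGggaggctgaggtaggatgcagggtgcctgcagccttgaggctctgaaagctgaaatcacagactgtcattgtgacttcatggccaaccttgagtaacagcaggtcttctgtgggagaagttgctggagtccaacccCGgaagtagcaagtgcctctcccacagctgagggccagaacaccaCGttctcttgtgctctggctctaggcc

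These windows held 22 CpG in NKX3-2, 38 in WNT3A, 30 in LHX4, 36 in NKX1-2 and 40 in WNT4, against 1 in PAX4 and 3 in TBX22. The H3K4me3 regions of NKX3-2, LHX4 and WNT4 and the H3K27me3 regions of WNT3A, NKX1-2 and PAX4 covered all 250 bases of their windows. A region joins the peaks of several libraries, and a single library can cover less. At LHX4, no vehicle peak of either mark reached the window, and only OA replicate 3 had an H3K4me3 peak over all of it. At NKX1-2, only vehicle replicate 3 had an H3K27me3 peak over the whole window. The region over the PAX4 window, chr7:127617963-127618864, had a peak in vehicle replicate 2 and OA replicate 1 alone. Of the 81 genes, 58 were in the promoter table and 51 had an entry at the start used here, all 51 identical to the hg38 sequence. The median over the 51 genes was 23 CpG, against 19 over 14569 protein-coding genes with such an entry. The genes with H3K4me3 in vehicle had a median of 26 CpG (n = 17, range 11 to 44), and those with H3K27me3 had a median of 25 (n = 18, range 1 to 38). Over all protein-coding genes the medians were 22 for H3K4me3 (n = 9131) and 12 for H3K27me3 (n = 1132). Developmental genes with neither mark had a median of 13.5 CpG (n = 14), against 5 over all genes with neither (n = 4004). CpG were counted on 1 strand, which gives the same number on the other, and at least 10 were present in 43 of the 51 windows and in 72.6% of all 14569.

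**Figure D3:**
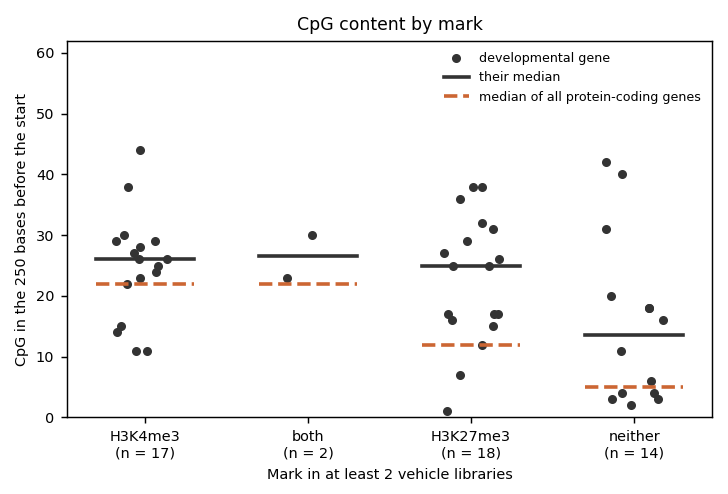
Number of CpG in the 250 bases before the start site (y axis), for 51 developmental genes (points) by the mark called in at least 2 vehicle libraries. Solid bars are their medians and dashed bars the medians of all protein-coding genes in the same class. The points with H3K27me3 have a median of 25, where all genes with H3K27me3 have a median of 12.

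The marks sat at different places. Of 47 H3K4me3 regions near the developmental genes, 30 lay over the canonical start and 37 over some annotated start, and their median length was 1248 bp. Of 44 H3K27me3 regions, 7 lay over the canonical start and 14 over some annotated start, and their median length was 906 bp. The longest H3K4me3 region was that of IRX3, 3534 bp at chr16:54283800-54287333 (hg38, as all regions here) over its start. The longest H3K27me3 region was that of WNT3A, 3253 bp at chr1:228005497-228008749, also over the start. A mark counted for a gene therefore need not lie on the start that its main transcript uses. The H3K27me3 region of LHX5 lay 1960 bp from the canonical start, and PAX6 was called through 3 regions 3230 to 9639 bp from the canonical start, each near another annotated start.

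Peak strength was ranked within each library by the −log10 p that the authors' caller gave, as a percentile of all peaks in that library. Among the genes with an H3K4me3 region in all 6 libraries, SIX4 had the highest lowest percentile, 76.1, and the others with high values included IRX1 (57.2), TBX3 (53.2), IRX3 (51.2), SIX5 (50.6), IRX2 (47.2), DLX1 (43.2), TBX2 (42.0) and PAX9 (39.1). Vehicle libraries had a fold enrichment over local background of 6.49, 7.37 and 12.3 at SIX4, and OA libraries had 6.32, 6.24 and 6.08. At IRX1 the vehicle folds were 6.97, 7.89 and 8.98 and the OA folds 5.41, 8.09 and 8.04. The conditions overlapped at IRX1, and at SIX4 the OA libraries lay below the vehicle libraries. Neither mark's fold is scaled between libraries. For H3K27me3, the order of the 7 genes with a region in all 6 libraries was WNT3A (71.0), WNT16 (64.7), DLX4 (39.7), WNT1 (39.1), TBX21 (18.5), PAX4 (13.8) and DLX3 (12.9). WNT3A, a canonical WNT ligand, had folds of 3.06, 3.89 and 3.00 in vehicle and 2.68, 3.15 and 3.19 in OA, and the conditions overlapped.

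LHX6, LHX9 and WNT11 were called for H3K4me3 in all 3 OA libraries and in 0 vehicle libraries, as were 173 of all protein-coding genes (0.864%). In vehicle alone, 0 of the 81 genes and 0% of all genes were called. WNT11, a ligand of the beta-catenin-independent pathway, had 568, 2092 and 2654 bases under H3K4me3 peaks within 3 kb of its start in OA replicates 1, 2 and 3. It had 0 in each vehicle and each untreated library. Its region, chr11:76206531-76209545, lay upstream of the canonical start and ended 29 bp from it, within the annotated span of the gene. The strongest peak had a fold of 4.42, 6.27 and 7.03 in the 3 OA libraries, and ranked in percentiles 15.2, 31.5 and 48.5 of the H3K4me3 peaks of those libraries.

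LHX6, a factor of interneuron development, had 195, 395 and 639 covered bases in OA and 0 in vehicle, at chr9:122228383-122229021 over the canonical start. Its folds in OA were 6.81, 8.07 and 7.06. LHX9, a factor of gonad and limb development, had folds of 4.70, 8.48 and 7.11 in OA at chr1:197911656-197912902, which lay over an alternative start 4470 bp from the canonical one. The LHX6 peaks ranked in percentiles 20.7 to 25.3 and the LHX9 peaks in percentiles 14.9 to 35.6. With an equal number of the strongest peaks taken from every library, LHX9 and WNT11 were called in OA alone and LHX6 was not, and with peaks required to cover 50% of the region none of the 3 was, and DLX4 and WNT2B were called in OA alone in their place.

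Across the 81 genes, H3K4me3 was called in more OA than vehicle libraries at 19 (8.94% of all genes) and in fewer at 0 (0.514%). Only genes with a kept H3K4me3 region and without a call in all 6 libraries can differ in this way. A kept region was present at 39 of the 81 genes and at 13392 of all genes. Of these, 18 and 11315 were called in all 6 libraries, and 19 and 1790 were called in more OA libraries. At 11 of the 81 genes, the only library without a call was vehicle replicate 3, against 4.32% of all genes. These 11, all among the 19, were DLX4, LHX4, NKX2-5, NKX2-8, NKX6-1, WNT10A, WNT2B, WNT3, WNT7A, WNT7B and WNT9A. Over all protein-coding genes, 866 of the 1790 called in more OA than vehicle libraries had this pattern. The untreated libraries, with 11242 and 12924 peaks, had a call at 1 of these 11 genes, WNT9A. Vehicle replicate 3 had the lowest local background and the least covered sequence, and their part in the lack of these calls was not tested. Without that library, 8 of the 81 genes were called in a larger share of OA than of vehicle libraries, namely IRX6, LHX1, LHX6, LHX9, NKX1-2, WNT11, WNT4 and WNT6 (4.67% of all genes), and 2 in a smaller share (1.36%). WNT4, which acts in side branching of the mammary gland, was called in vehicle replicate 1 and in all OA libraries, with 632, 0 and 0 covered bases in vehicle and 749, 621 and 1451 in OA. OA replicate 2 lay just below vehicle replicate 1, so the conditions overlapped (exact permutation p = 0.2).

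The length of sequence under H3K4me3 peaks was compared in the same libraries, at genes called in both conditions too. Of 42 developmental genes with a covered base in at least 1 library, 8 had more covered bases in every OA library than in any vehicle library (8.82% of 13502 genes), and 0 had fewer (0.304%). They included DLX4, LHX4, LHX6, NKX2-8, NKX3-2, WNT11 and WNT2B. LHX4, a factor of pituitary development, had 196, 387 and 0 covered bases in vehicle and 1192, 1380 and 2285 in OA. DLX4 had 375, 416 and 0 in vehicle and 979, 1042 and 1351 in OA. Both had no H3K4me3 peak in vehicle replicate 3, and their other vehicle libraries also lay below every OA library. WNT2B had 356, 209 and 0 covered bases in vehicle and 625, 709 and 783 in OA. NKX2-8 had 1310, 719 and 0 in vehicle and 1409, 1361 and 1411 in OA, so that vehicle replicate 1 came close to the OA libraries. The skeletal factor NKX3-2, with 593, 659 and 309 in vehicle and 1048, 874 and 1067 in OA, was called in every library. The genes were picked because their conditions do not overlap, which by itself fixes the two-sided exact permutation p of 3 against 3 libraries at 0.1, the smallest it can be.

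**Figure D4:**
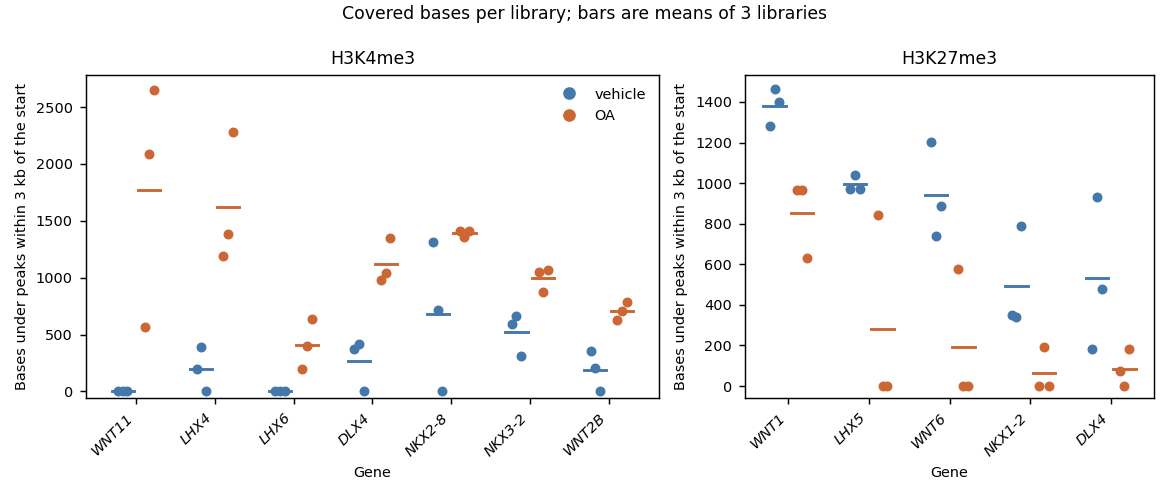
Bases under peaks within 3 kb of the canonical start (y axis) in each vehicle (blue) and OA (orange) library, for genes whose conditions do not overlap. Points are libraries and bars the means of 3. At the 7 genes drawn for H3K4me3 (left) every OA point lies above the vehicle points, and at the 5 drawn for H3K27me3 (right) every OA point lies below them.

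Where the mark was present in all 6 libraries, its strength and length did not pass a test across all regions or genes. limma on centred log2 fold enrichment called 1 of 11071 H3K4me3 regions higher in OA (0.00903%) and 0 lower (0%), with 0 of the calls near a developmental gene (495 and 325 at an unadjusted p of 0.05). Over the 18 developmental regions tested, 8 had a higher mean in OA, and the median log2 difference, OA minus vehicle, was -0.09, against -0.01 over all regions. The largest was at SIX2, a kidney progenitor factor, with 0.73 (SE 0.25, limma adjusted p = 0.60), and the lowest at DLX2, with -0.33 (SE 0.16, limma adjusted p = 0.69). limma on log2 covered bases called 0 of 10802 genes (0% in each direction, 490 higher and 444 lower at an unadjusted p of 0.05). Of the 18 developmental genes with a covered base in all 6 libraries, 13 were higher in OA, and the median log2 difference was 0.23, against -0.02 over all genes tested. NKX3-2 had 0.86 (SE 0.22, limma adjusted p = 0.36), IRX4 had 1.87 (SE 0.91, limma adjusted p = 0.61), which was 0.66 without vehicle replicate 3, and TBX3 had -0.30 (SE 0.26, limma adjusted p = 0.75). These tests leave out genes with a library at 0, such as WNT11, LHX4 and DLX4.

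H3K27me3 went the other way in its calls. It was called in fewer OA than vehicle libraries at 15 of the 81 genes (6.56% of all genes) and in more at 1, LHX3 (1.62%). Only genes with a kept H3K27me3 region can be called in fewer OA libraries. These were 31 of the 81 genes and 2762 of all genes, and 15 of the 31 and 1315 of the 2762 were called in fewer. In vehicle alone 0 of the 81 genes were called (0.329% of all genes) and in OA alone 0 (0.025%). The 15 genes were DLX6, LHX2, LHX4, LHX5, NKX1-2, NKX2-4, NKX6-1, NKX6-3, PAX2, PAX3, SIX6, TBX20, TBX5, WNT5B and WNT6. OA replicate 3 held the fewest peaks, 9091, and without it 13 of the 81 genes were in a smaller share of OA than of vehicle libraries (4.91% of all genes) and 5 in a larger share (4.56%). With an equal number of the strongest peaks in every library, 8 were in a smaller share (2.15%) and 2 in a larger share (1.28%). At a q-value of at most 1e-05, few H3K27me3 peaks remained and 0 developmental genes were called in a smaller share.

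Of 39 developmental genes with a base under an H3K27me3 peak, 5 had fewer covered bases in every OA library than in any vehicle library (6.08% of 3934 genes) and 0 had more (0.381%). WNT1, the ligand first found as a mouse mammary oncogene, had 1280, 1462 and 1402 covered bases in vehicle and 964, 964 and 632 in OA, at chr12:48978451-48980142 in an exon 129 bp from the start. It kept a call in every OA library. LHX5 had 972, 1041 and 971 in vehicle and 842, 0 and 0 in OA, and it was also called in OA replicate 2 through a peak of 338 bp further from the start. WNT6 had 1203, 738 and 887 in vehicle and 576, 0 and 0 in OA. NKX1-2 had 350, 340 and 788 in vehicle and 0, 192 and 0 in OA. DLX4 had 183, 931 and 477 in vehicle and 72, 0 and 182 in OA, so that its vehicle replicate 1 and OA replicate 3 were 1 base apart, and it was called in every OA library through peaks further from the start. Here too the lack of overlap chose the genes and fixes the permutation p. With an equal number of the strongest peaks, LHX5 and WNT1 met the rule. limma on the fold of the H3K27me3 regions present in all 6 libraries called 0 of 1325 in either direction (0%, 70 higher and 34 lower at an unadjusted p of 0.05). Over the 7 developmental regions tested, the log2 difference ran from -0.18 at WNT3A (SE 0.11, limma adjusted p = 0.64) to 0.13 at WNT16 (SE 0.09, limma adjusted p = 0.71), with a median of -0.07 against 0.00 over all 1325.

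Both marks were called at 8 of the 81 genes in at least 1 library each (4.72% of all genes), among them DLX4, DLX6, LHX4, NKX1-2, NKX6-1, WNT10B and WNT6. In vehicle DLX4, LHX4 and NKX6-1 had both in at least 2 libraries. The marks were profiled in different libraries, so it is unknown whether they lay on the same molecules. At DLX4, the H3K4me3 region chr17:49968320-49969670 lay over the start and the H3K27me3 region chr17:49963977-49967195 lay upstream of it, with 1124 bp between them. At NKX6-1, a factor of pancreatic beta cells, the H3K4me3 region chr4:84498327-84499574 lay over the start and the H3K27me3 region chr4:84499881-84502087 began 306 bp further upstream. NKX6-1 had an H3K4me3 fold of 6.17 in vehicle replicate 1 and 6.35 in replicate 2, and the OA folds were 5.22, 8.80 and 9.04. The regions of the 2 marks, each joined over both conditions, overlapped at LHX4 by 215 bp, at WNT6 by 372 bp and at NKX1-2 by 489 bp. At LHX4 and WNT6, no H3K4me3 peak overlapped an H3K27me3 peak of the same condition. At NKX1-2, the H3K4me3 peak of vehicle replicate 1 overlapped the H3K27me3 peak of vehicle replicate 3, and the OA peaks of the 2 marks did not overlap. LHX4 had H3K27me3 in this region in vehicle replicates 2 and 3, with folds of 2.32 and 2.84, and in 0 OA libraries. More than 3 kb downstream of its start, H3K27me3 peaks were present in all 3 vehicle libraries and in OA replicates 1 and 2. WNT6 and NKX1-2 were called for H3K27me3 in all 3 vehicle libraries and in 1 OA library each. WNT6 had H3K4me3 in OA replicates 1 and 3, with folds of 4.97 and 5.15, and in 0 vehicle libraries. NKX1-2 had H3K4me3 in vehicle replicate 1 (fold 5.49), in OA replicates 1 and 3 (7.28 and 10.8) and in untreated replicate 1 (4.12). The count of 3 genes with both marks in vehicle fell to 0 at a q-value of at most 1e-05, and to 0 without H3K4me3 vehicle replicate 1 or 2, since vehicle replicate 3 has no H3K4me3 call at these genes.

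**Figure D5:**
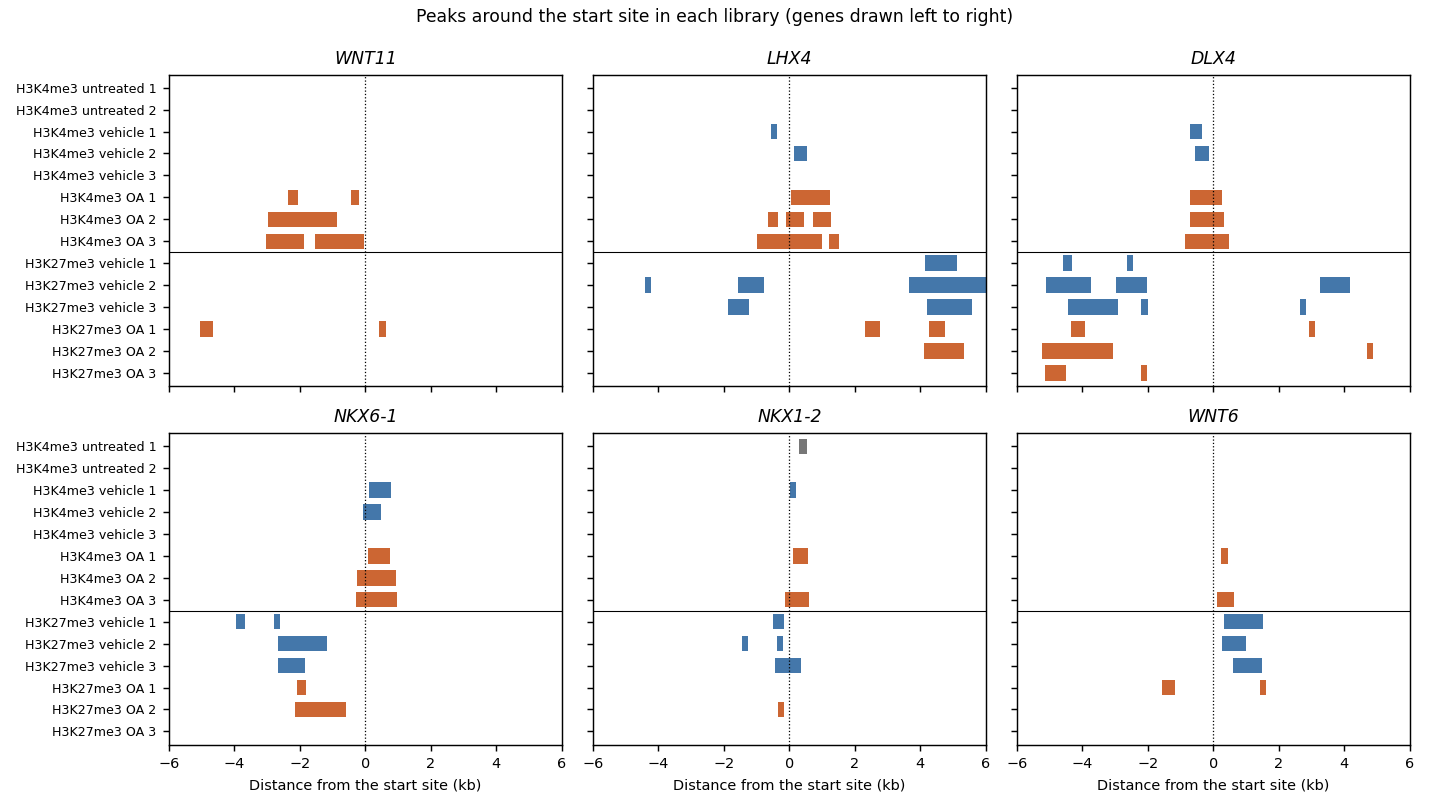
Peaks (bars) of each library (rows) around the canonical start site of 6 genes, by distance in kb along the gene's strand, with upstream to the left. Rows above the line are H3K4me3 and rows below it H3K27me3, with untreated in grey, vehicle in blue and OA in orange. WNT11 has H3K4me3 peaks in the 3 OA rows alone, the H3K4me3 peaks at LHX4 and DLX4 cover more bases in OA, and the H3K27me3 peaks of WNT6 downstream of the start are in the 3 vehicle rows and, shorter, in OA replicate 1.

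There were 19 pairs of neighbouring developmental genes within 500 kb, and in vehicle 4 pairs had the same state and 15 had different ones. Pairs of other genes were not counted, so these numbers do not show whether neighbours differ more often than other pairs. DLX1 and DLX2, with 17.4 kb between their starts, both carried H3K4me3, as did NKX2-8 and PAX9. DLX5 and DLX6 both carried H3K27me3. At 5 pairs one gene carried H3K4me3 and the other H3K27me3. WNT10B had H3K4me3 in vehicle replicates 1 and 2 and WNT1, 6.59 kb away, had H3K27me3 in all 3. WNT10B itself also had H3K27me3 in vehicle replicate 1 and OA replicate 1. WNT9A and WNT3A, 59.1 kb apart, carried H3K4me3 and H3K27me3, and so did WNT10A and WNT6 (21.0 kb) and TBX3 and TBX5 (278 kb). DLX4 carried both marks, and DLX3, 26.0 kb away, carried H3K27me3 alone.

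In the untreated libraries, H3K4me3 peaks were called at 16 and 11 of the 81 genes (53.2% and 48.9% of all genes), 9 of them in both: DLX2, IRX1, IRX3, IRX4, IRX5, SIX4, SIX5, TBX2 and WNT5A. Of the 18 called in either library, 15 were called in all 6 vehicle and OA libraries. DLX5 (untreated replicate 2) and NKX1-2 (untreated replicate 1) were called in an untreated library and in fewer than 2 vehicle libraries. WNT11, LHX6 and LHX9 were called in neither.

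The other genes of the WNT pathway, a list of 53 receptors, co-receptors, secreted inhibitors, R-spondins, transport and cytoplasmic components and TCF/LEF factors, were called for H3K4me3 at 38 of 53 (66.8% of all genes) and in all 6 libraries at 31 (56.5%), where the WNT ligands were called at 11 of 19 and in all 6 libraries at 1. H3K27me3 was called at 16 of the 53 (13.8% of all genes). Over the 53 genes, H3K4me3 was called in more OA than vehicle libraries at 7 (8.94% of all genes) and in fewer at 0 (0.514%), and H3K27me3 in fewer OA libraries at 9 (6.56%) and in more at 0 (1.62%). Fewer H3K27me3 calls were possible only at the 16 of the 53 genes with a kept region. H3K4me3 calls could differ only at those of the 38 genes that were not called in all 6 libraries. At 4 of the 7, RNF43, KREMEN2, TCF7 and NKD1, the only library without an H3K4me3 call was vehicle replicate 3. ROR2, a receptor of WNT5A, was called for H3K4me3 in 3 OA libraries and 0 vehicle libraries, and for H3K27me3 in 3 vehicle libraries and 1 OA library. In vehicle, AXIN2, LEF1 and RNF43 carried both marks.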

How the data were processed

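The data were peak lists of 16 CUT&RUN libraries of MCF-10A cells on hg38. The authors called narrow peaks with MACS2 2.2.7.1 in each library by itself and deposited, for each peak, a fold enrichment over local background (a ratio) together with p-values and q-values on a −log10 scale. The methods name SICER2 for H3K27me3, whereas the deposited H3K27me3 lists have the broad layout of MACS2. Fold values are not scaled between libraries, and read depth is not given. The aligner is not given in the sources used here. The largest q-value is 0.01 in narrow and 0.1 in broad lists.

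From these lists, overlapping peaks (1 bp or more) of the 6 vehicle and OA libraries of a mark were joined into regions, and those seen in 2 or more libraries were used. Genes were the protein-coding genes of GENCODE release 44, with start sites within 3 kb. Calls in untreated and IgG libraries were peaks of that library within 3 kb. Covered bases lay within 3 kb of the canonical start. The fold of the strongest peak and the covered bases, as log2 values centred on the library median, were tested with limma 3.58.1 in R 4.3.3 (Benjamini-Hochberg, threshold 0.05) where all 6 libraries had a value. Single genes were compared with a two-sided exact permutation test on the difference in means, over every split of the 6 libraries. The local background was solved with scipy 1.17.1. The rule for calls and the limma fits were checked on simulated data.

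Genes were named where they were called in 1 condition alone, past the limma threshold, carried both marks in a condition, ranked in the 10 highest by their lowest percentile of −log10 p over the 6 libraries, or had an untreated call with fewer than 2 vehicle calls. Further genes, named for their state changes, calls in more libraries of 1 condition, covered bases or promoter sequence, were chosen after their values were seen. The members and lists were chosen with earlier results of these data known. Same-numbered vehicle and OA libraries did not deviate together for H3K4me3, and for H3K27me3 their correlations were low and positive. No pairing was used for either mark. Alternatives were a stricter q-value, an equal number of peaks per library, other distances and overlaps, other scalings and leaving out each library. The alternatives for the covered bases that do not overlap and for the larger or smaller share of libraries were chosen after seeing the data. Some genes are counted but not reported here by name.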

Additional observations from a re-analysis of the deposited data

Results flagged for a closer look

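Peaks of single libraries that fell in no kept region were outside the comparisons. H3K4me3 peaks of this kind lay within 3 kb of a start site of 8 developmental genes without a kept H3K4me3 region (DLX5, LHX2, LHX3, PAX5, PAX8, TBX1, WNT3A and WNT5B), which was 8 of the 42 without such a region, against 12.2% of the 6641 protein-coding genes without one. All 8 had such a peak in OA replicate 3, the H3K4me3 library with the most peaks (21033), 1 of them also in vehicle replicate 1 (WNT3A) and 1 in untreated replicate 2 (DLX5).

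For H3K27me3, such peaks lay near 14 of the 50 genes without a kept H3K27me3 region, against 13.3% of 17271 protein-coding genes, and WNT7B had one in 3 libraries. Vehicle replicates 1, 2 and 3 held peaks at 5, 3 and 2 of these genes. The OA libraries, in the same order, held them at 7, 2 and 1. WNT11, LHX6 and LHX9, called for H3K4me3 in OA alone, were among them, each with an H3K27me3 peak in OA replicate 1. LHX9 also had one in OA replicate 2, and LHX6 one in vehicle replicate 2. The part that the number of peaks per library plays in these counts was not tested.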

How the results depend on the processing

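The 3 genes with H3K4me3 in OA alone became 6 when 2 libraries of 1 condition sufficed, and 3 to 5 when a library was left out (5 without OA replicate 1). H3K27me3 in vehicle alone went from 0 to 2 genes when 2 libraries sufficed, with equal peak numbers, or with peaks covering 50% of the region, and was 0 to 2 when a library was left out; in OA alone it was 0 to 1. The 3 genes with both marks in vehicle became 0 when all 3 libraries were required, at a q-value of at most 1e-05 or at 50% coverage, 1 with equal peak numbers, and 0 to 3 when a library was left out. The 8 genes with longer H3K4me3 cover became 8 to 21 when a library was left out (13 without vehicle replicate 1, 21 without OA replicate 1). The 5 with shorter H3K27me3 cover became 0 at the stricter q-value, 2 with equal peak numbers, 3 within 1 kb, and 5 to 9 when a library was left out (9 without vehicle replicate 1, 8 without vehicle replicate 3). The 19 with H3K4me3 in a larger share of OA libraries became 8 to 20 when a library was left out (8 without vehicle replicate 3). The 15 with H3K27me3 in a smaller share became 0 at the stricter q-value, 8 with equal peak numbers, 9 within 1 kb and 13 to 18 when a library was left out. Over all regions, limma's 1 H3K4me3 strength call became 0 with quantile normalisation or the stricter q-value, 9 without centring (which moved the median log2 difference of all regions to -0.18), 3 on percentiles and 0 to 11 when a library was left out (11 without vehicle replicate 3); its 0 length calls became 3 with quantile normalisation and 0 to 11 when a library was left out (11 without vehicle replicate 3). The log2 length difference of TBX3 was -0.47 to 0.035 when a library was left out, against -0.30 with all, and turned to 0.035 without OA replicate 1. A gene already called in 1 condition alone, or whose covered bases do not overlap, stays so by construction when a library is left out, so these ranges can only grow. Except where an alternative's own construction shows it, the cause was not tested.

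With the replicate number as a block, limma called 0 H3K4me3 regions by strength, 0 genes by length and 0 H3K27me3 regions. Correlations of same-numbered libraries were -0.05, 0.19 and -0.29 for H3K4me3 strength, 0.05, 0.12 and -0.23 for length and 0.17, 0.03 and 0.08 for H3K27me3 strength. Those of differently numbered libraries ran from -0.36 to 0.25, from -0.23 to 0.22 and from -0.14 to 0.06. For H3K4me3 the numbers gave no pairing. For H3K27me3 each same-numbered value was low but the highest of its vehicle library, so a weak pairing stays possible. At the stricter q-value 30 H3K27me3 regions could be tested, 0 of them near a developmental gene. Read depth is unknown, so a missing peak cannot be told from a peak too weak to be called.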
